A study of Mus musculus with 6 samples.

Results

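A set of 10 radial glia genes was followed in the fetal mouse cortex: Pax6, Sox2, Sox3, Nes, Vim, Fabp7, Slc1a3, Hopx, Tnc and Ptprz1. They mark radial glia of the ventricular zone and were matched by symbol to the rows of the count table. All 10 of the 10 symbols were found among 45583 rows, and all 10 passed the filter on low counts that left 13741 genes for testing. No difference between fetuses of vehicle- and BPA-treated dams was detected for any of the 10.

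Radial glia are the progenitor cells that line the ventricles of the developing brain. They keep contact with the ventricular surface, span the cortical wall with a long process along which newborn neurons migrate, and divide to give neurons directly or through intermediate progenitors, and later glia. The genes followed here cover their transcription factors (Pax6, Sox2, Sox3), their intermediate filaments (Nes, Vim), a lipid carrier and a glutamate transporter that mark their glial character (Fabp7, Slc1a3), and genes of the extracellular matrix and of later or basal radial glia (Tnc, Ptprz1, Hopx).

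RNA sequencing counts were available for the cortex of 6 male fetuses at GD15.5 (gestational day), 3 from dams given bisphenol A (BPA, a plastic monomer with weak estrogenic action) at 50 µg/kg and 3 from dams given the peanut oil vehicle, from GD10.5 to GD14.5. All fetuses came from the Cyp19-EGFP strain, a reporter line for aromatase (Cyp19a1) whose transgene makes EGFP under control of that gene. Their genotype is given as WT, SRY +, with no further word on the transgene. The groups thus shared strain, sex and labelled genotype, and whether each fetus carried the transgene is not known. The study's methods describe injection under the skin of the dam, with BPA dissolved in ethanol and peanut oil. Each library has its own fetal number, litters are not given in the labels, and the p-values below treat fetuses as independent. Library totals ran from 3444601 counts in BPA replicate 3 and 5030652 in vehicle replicate 3 to 7180835 in vehicle replicate 2. Every pair of libraries differed by more than counting noise, with a chi-square of 2.52 to 8.48 for each degree of freedom. Neuron genes were abundant: 18 of them summed to between 12917 and 13993 CPM (TMM-scaled counts relative to library size, where TMM is the trimmed mean of M-values). Those with the highest CPM, Dcx, Tubb3, Map2 and Mapt, are general to neurons and do not mark cortex. Of markers of the labelled tissue, 10 pallial transcription factors summed to between 744 and 1084 CPM. Subpallial genes were also present, between 1009 and 1344 CPM over 15 genes, as were choroid plexus genes, between 86.2 and 489 CPM over 12 genes. Of the choroid plexus genes, Igf2 was at 61.0 to 120 CPM in every library. Ttr was at 195 CPM in vehicle replicate 2 and 308 CPM in BPA replicate 2, but at only 2.21 to 11.9 CPM in the other libraries. Whether the subpallial genes came from subpallial tissue or from interneurons within the cortex was not tested. In bulk tissue, fewer radial glia and less RNA per radial glial cell cannot be told apart.

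The genes lie on different chromosomes except for pairs on chromosomes 2 and 3. In GRCm38 they are Pax6 (chromosome 2, 105668900 to 105697364, plus strand), Vim (chromosome 2, 13573927 to 13582826, plus), Sox2 (chromosome 3, 34650405 to 34652461, plus), Nes (chromosome 3, 87971078 to 87980451, plus), Tnc (chromosome 4, 63959785 to 64047015, minus), Hopx (chromosome 5, 77086988 to 77115121, minus), Ptprz1 (chromosome 6, 22875502 to 23052916, plus), Fabp7 (chromosome 10, 57784881 to 57788450, plus), Slc1a3 (chromosome 15, 8634124 to 8710764, minus) and Sox3 (X chromosome, 60891366 to 60893430, minus). Sox2 and Sox3 each consist of 1 exon, and Sox2 sits inside the long noncoding gene Sox2ot on the same strand without sharing exonic bases with it. Sox2, Sox3, Nes, Vim and Fabp7 shared no 50-base sequence, the read length, with transcripts of any other annotated gene. Pax6, Slc1a3, Tnc and Ptprz1 shared at most 1.04% of theirs. Hopx shared 24.0% of its 50-base words, all with the antisense transcript Hopxos from the other strand, for which each library held between 0 and 2 counts. The counts of Hopx are uncertain to that extent, since the strand setting of the counting is not stated.

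Compared per kilobase of annotated exon (RPKM), the genes spanned a wide range of levels. Fabp7, the brain fatty acid binding protein, stood highest at 241 RPKM averaged over the 6 libraries (range 204 to 274), and Vim, the filament protein vimentin, followed at 130 RPKM (118 to 137). Neither range touched its neighbor's. Sox2 (64.6 RPKM, 53.6 to 73.0), Nes (54.3 RPKM, 45.8 to 64.1) and Ptprz1 (45.03 RPKM, 41.0 to 50.5) came next with ranges that overlapped from each gene to the following one. Tnc lay at 31.3 RPKM (27.8 to 39.5), apart from Ptprz1 above and from Slc1a3 below. Slc1a3 (20.05 RPKM, 15.7 to 23.1), Sox3 (14.9 RPKM, 9.04 to 19.6) and Pax6 (9.11 RPKM, 6.49 to 11.5) again overlapped from neighbor to neighbor. Hopx was lowest at 2.5002 RPKM (2.08 to 3.08) and stood apart from all others. Lengths were taken over all annotated isoforms, which lowers the per-length level of genes with long alternative exons such as Pax6, with 11694 exonic bases.

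The comparison of BPA with vehicle asked whether maternal BPA left a difference in these progenitor genes 1 day after the last dose. With a 0.1 threshold on the Benjamini-Hochberg adjusted p, edgeR's quasi-likelihood test called 0 of the 10 genes and 0 (0%) of the 13741 genes tested. DESeq2 called 0 of the 10 and 3 (0.0218%) of all, limma-voom 0 of the 10 and 0 (0%) of all, and edgeR with no filter 0 of the 10 and 19 (0.0808%) of 23501. At an unadjusted p under 0.05 edgeR also passed 0 of the 10, where 302 of all genes passed (2.2%), 1.18% lower and 1.02% higher in BPA. The vehicle and BPA libraries overlapped for each of the 10 genes, while 928 of all genes (6.75%) showed no overlap, 3.56% lower and 3.19% higher in BPA. Log2 fold changes of BPA over vehicle ran from -0.21 for Sox2 to 0.10 for Tnc, with 4 above 0 and 6 below, a median of -0.0090 against 0.0016 over all genes tested. The adjusted p was 0.9998 for every member in edgeR's fit.

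**Figure D1:**
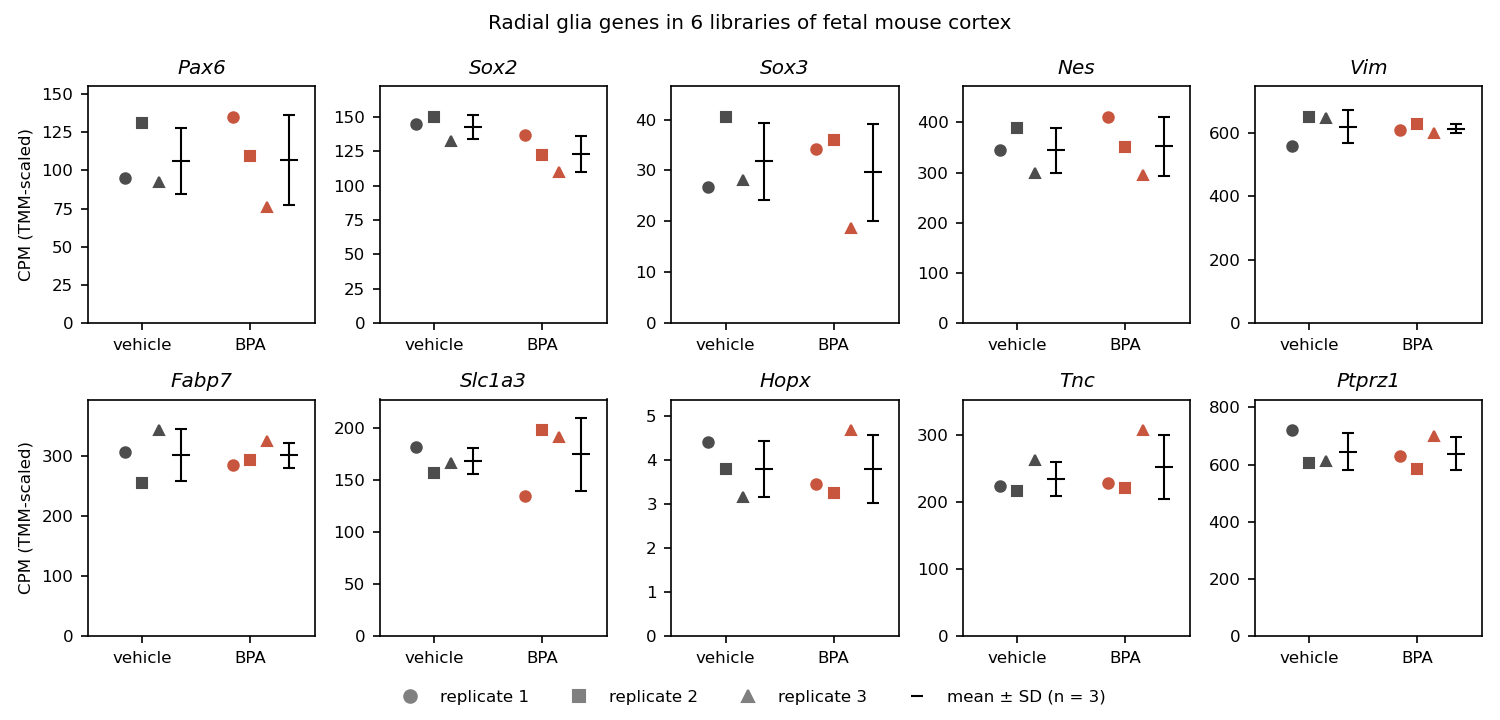
Expression of the 10 genes in CPM (linear axes from 0), with 1 point per library, marker shapes for replicates 1 to 3, and bars for the mean and SD of 3 libraries. Vehicle (gray) and BPA (red) points overlap in every panel, and Sox2 has the largest shift between the group means.

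Of the transcription factors, Sox2 came closest to a difference. It encodes a factor that keeps neural progenitors undifferentiated. Sox2 was at 145, 150 and 133 CPM in the vehicle libraries and at 137, 122 and 110 CPM in the BPA libraries, so that the highest BPA library lay above the lowest vehicle library. Vehicle averaged 143 ± 8.86 CPM and BPA 123 ± 13.3 CPM (mean ± SD, n = 3 each). The log2 fold change of Sox2 was -0.21 (SE 0.106, 95% interval -0.43 to 0.02; edgeR unadjusted p = 0.0677, adjusted p = 0.9998). The interval spans folds from 0.741 to 1.01. The value rested in part on BPA replicate 3, without which it was -0.14 (edgeR unadjusted p = 0.260), and it was -0.29 without BPA replicate 1 (edgeR unadjusted p = 0.0274), where the gene was again not called after adjustment. Sox2 was highest in the deepest library, vehicle replicate 2, and lowest in the shallowest, BPA replicate 3. The part of depth in the Sox2 values was not tested.

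Sox3, the X-linked relative of Sox2 with a related role in progenitors, was far more variable between fetuses. Its values were 26.8, 40.5 and 28.2 CPM in vehicle and 34.2, 36.1 and 18.7 CPM in BPA. The lowest and the highest library differed by 2.17-fold, the widest spread of the 10 genes, and the lowest, BPA replicate 3, held 64 counts of Sox3. The SD of its log2 CPM over the 6 libraries was 0.395, against 0.115 from counting error alone. Differences between fetuses and between library preparations cannot be told apart in this spread, since each fetus gave 1 library. The log2 fold change of Sox3 was -0.07 (SE 0.204, 95% interval -0.50 to 0.36). Sox1, the remaining member of this subfamily and listed among the other radial glia genes, averaged 132 ± 15.8 CPM in vehicle and 113 ± 6.72 CPM in BPA (mean ± SD, n = 3 each). Its log2 fold change was -0.23 (SE 0.110; edgeR unadjusted p = 0.0534, adjusted p = 0.9998). Sox1 was named after its values were seen.

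Pax6, which sets the neurogenic program of cortical radial glia and their pallial identity, also varied widely without regard to treatment. It was at 95.01, 131 and 92.1 CPM in vehicle and at 135, 110 and 75.9 CPM in BPA. The BPA group thus held both the highest and the lowest library, a 1.78-fold spread. Vehicle averaged 106 ± 21.8 CPM and BPA 107 ± 29.7 CPM (mean ± SD, n = 3 each), and the log2 fold change of Pax6 was 0.02 (SE 0.173, 95% interval -0.35 to 0.39).

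Among the filament genes, Nes encodes nestin, the classic filament marker of neural stem cells. Nes was at 345, 389 and 300 CPM in vehicle and 411, 351 and 294 CPM in BPA, with the highest and lowest values again both in BPA. Its log2 fold change was 0.03 (SE 0.123, 95% interval -0.23 to 0.30). Vim, with which nestin assembles into filaments, was the steadiest of the 10 genes. Its CPM values of 559, 650 and 647 in vehicle and 610, 627 and 599 in BPA stayed within 1.16-fold of each other. The log2 fold change of Vim was -0.02 (SE 0.0928), and its 95% interval from -0.21 to 0.18 allowed folds from 0.863 to 1.13.

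Fabp7, a fatty acid carrier abundant in radial glia, had practically equal group means, 301 CPM ± 43.7 in vehicle and 301 CPM ± 20.5 in BPA (SD, n = 3 each). The vehicle libraries, at 306, 255 and 342 CPM, enclosed the BPA libraries, at 285, 293 and 324 CPM. The log2 fold change of Fabp7 was -0.0025 (SE 0.110, 95% interval -0.24 to 0.23). Slc1a3, which encodes the glutamate transporter GLAST, was at 181, 156 and 166 CPM in vehicle and 134, 197 and 191 CPM in BPA. Here the BPA libraries enclosed the vehicle libraries, and BPA replicate 1 was lowest. The log2 fold change of Slc1a3 was 0.05 (SE 0.130, 95% interval -0.23 to 0.33).

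Tnc encodes tenascin C, a matrix protein of the germinal zone, and Ptprz1 a receptor tyrosine phosphatase that binds it. Tnc was at 224, 216 and 263 CPM in vehicle and 229, 222 and 307 CPM in BPA. In each group 1 library stood above the other pair, vehicle replicate 3 and BPA replicate 3. Its log2 fold change of 0.10 (SE 0.124, 95% interval -0.16 to 0.37) was the highest of the members and turned to -0.06 without BPA replicate 3. Ptprz1, the member with the most counts, was at 719, 606 and 612 CPM in vehicle and 630, 585 and 698 CPM in BPA, a log2 fold change of -0.02 (SE 0.102, 95% interval -0.24 to 0.20).

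Hopx, a homeodomain protein without DNA-binding ability that marks basal radial glia in primates, had the fewest counts. There were 30, 27 and 16 counts in the vehicle libraries and 22, 20 and 16 in the BPA libraries. In CPM these were 4.41, 3.80 and 3.16 against 3.45, 3.25 and 4.67. The SD of its log2 CPM over all libraries, 0.215, was below the 0.315 that counting error alone gives, and no difference between fetuses was detectable at this depth. The 95% interval of its log2 fold change, from -0.66 to 0.55, was the widest of the members.

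**Figure D2:**
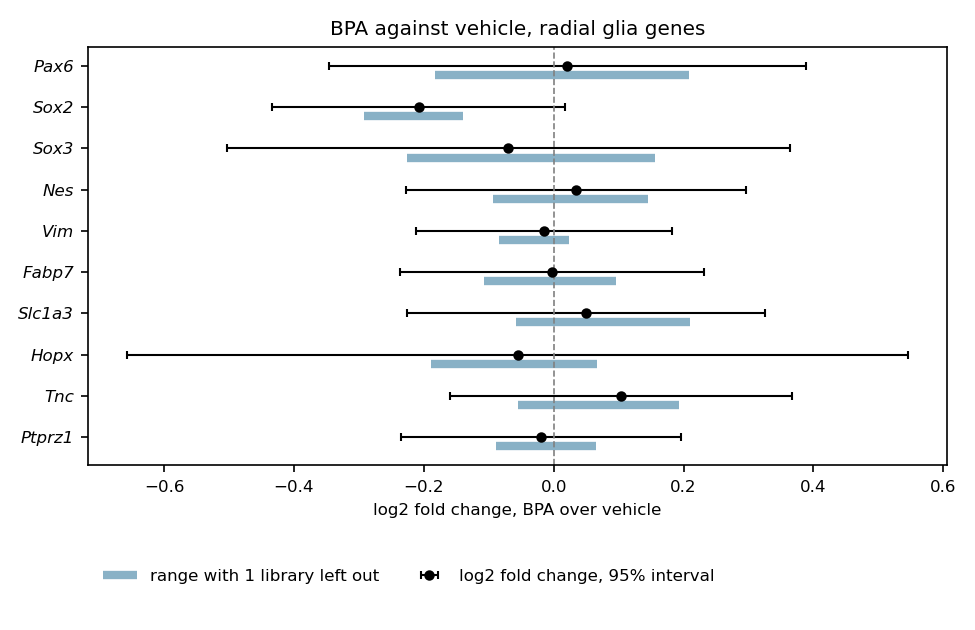
Log2 fold change of BPA over vehicle for each gene, as points with 95% intervals from edgeR's quasi-likelihood fit, and blue bars for the range of the estimate when 1 of the 6 libraries was left out. Every interval includes 0, and Sox2 is the only one of the 10 whose blue bar, from -0.29 to -0.14, does not reach 0.

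The balance between related members was examined as the ratio of their counts within a library, which does not depend on library scaling. The 5 ratios compared were Sox3 to Sox2, Fabp7 to Slc1a3, Nes to Vim, Tnc to Ptprz1 and Hopx to Pax6. Sox3 counts were 0.185, 0.270 and 0.212 of the Sox2 counts in vehicle and 0.250, 0.295 and 0.169 in BPA. The Tnc to Ptprz1 ratio was 0.311, 0.357 and 0.430 in vehicle and 0.363, 0.379 and 0.440 in BPA. It had the largest difference of the 5, 0.11 on the log2 scale (exact two-sided permutation test, p = 0.4). For the other 4 ratios the exact two-sided p lay between 0.8 and 1, and every Benjamini-Hochberg adjusted p was 1 over the 5 ratios. Groups of 3 against 3 cannot reach a p below 0.1 in this test.

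Over the 6 libraries, regardless of treatment, some members deviated in the same direction and others in the opposite one. Pax6, Sox3 and Nes were each highest in vehicle replicate 2 or BPA replicate 1 and each lowest in BPA replicate 3. Sox2, with its smaller spread, was also highest in vehicle replicate 2 and lowest in BPA replicate 3. Fabp7 and Tnc ran the other way: both were lowest in vehicle replicate 2, and vehicle replicate 3 and BPA replicate 3 were their top pair. This grouping was made after the values had been seen and is a description of 6 libraries. The summed CPM of Pax6, Sox3 and Nes was 467, 560 and 420 in vehicle and 580, 497 and 389 in BPA. That of Fabp7 and Tnc was 530, 471 and 605 in vehicle and 514, 515 and 631 in BPA. The ratio of the former sum to the latter was 0.880, 1.19 and 0.695 in vehicle and 1.13, 0.965 and 0.616 in BPA, so that a 1.93-fold range between fetuses was spread over both groups. With Sox2 added to the former sum the range was 1.91-fold. The lowest ratios belonged to the shallowest libraries, BPA replicate 3 and vehicle replicate 3. The part of depth in this order was not tested.

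**Figure D3:**
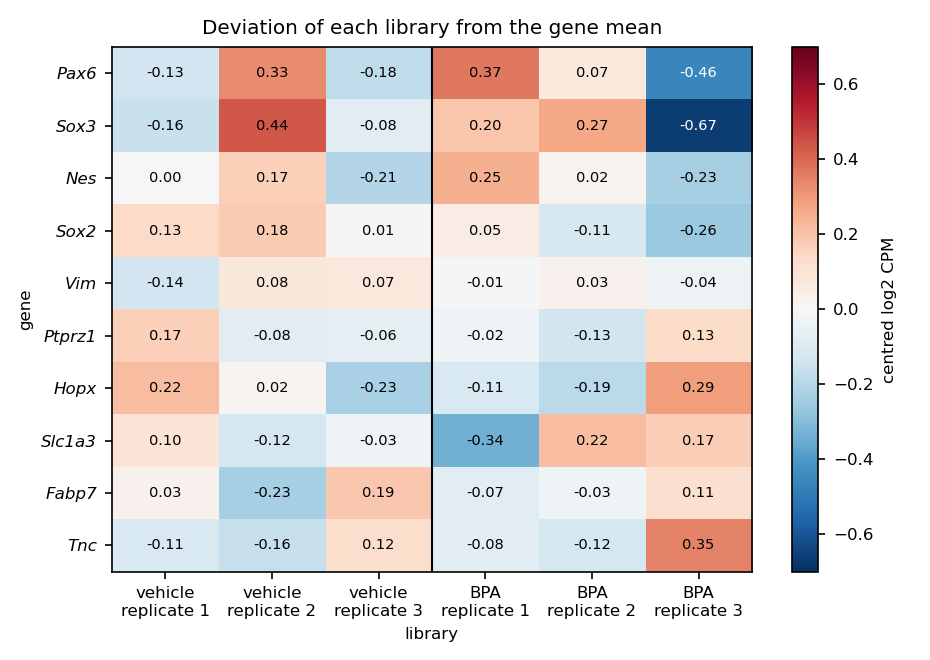
Centred log2 CPM (each gene's log2 CPM minus its mean over the 6 libraries) for the 10 genes, with libraries in columns, red above and blue below the gene's mean. Pax6 and Sox3 reach -0.46 and -0.67 in BPA replicate 3, where Tnc reaches 0.35, and the black line between vehicle and BPA does not separate high from low values.

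The sum of all 10 genes was nearly the same in every fetus. It was 2606, 2597 and 2586 CPM in vehicle and 2608, 2547 and 2623 CPM in BPA, a spread of 1.03-fold. Vim and Ptprz1, averaging 619 and 646 CPM in vehicle, weigh most in this sum, and Sox3, averaging 31.8 CPM, weighs little. The opposite deviations of Pax6, Sox3 and Nes and of Fabp7 and Tnc also offset each other in it. The average profile of the 10 genes over the libraries, in centred log2 CPM, ran only from -0.061 in BPA replicate 3 to 0.063 in vehicle replicate 2. The 5 genes closest to that profile, out of 10001 that averaged at least 10 CPM, were Caprin1, Zc3h7b, Hnrnph2, Eif3c and Cbfb, at root mean square distances of 0.014, 0.022, 0.022, 0.022 and 0.023 on the log2 scale over 6 libraries. These are genes that, like the average of the members, hardly varied.

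The start regions of genes from both sets are shown, since Pax6 and Nes deviated together between fetuses and Fabp7 and Tnc opposite to them. RefSeq gives windows from 250 bases before to 50 bases after a transcription start in GRCm38.p6 for 9 of the 10 genes. The windows at the outermost starts of Pax6 (chr2:105668646-105668945, plus strand), Nes (chr3:87970843-87971142, plus strand), Fabp7 (chr10:57784673-57784972, plus strand) and Tnc (chr4:64046966-64047265, minus strand) read, 5′ to 3′, with every CpG dinucleotide and every match to a motif named below in capitals:
Pax6: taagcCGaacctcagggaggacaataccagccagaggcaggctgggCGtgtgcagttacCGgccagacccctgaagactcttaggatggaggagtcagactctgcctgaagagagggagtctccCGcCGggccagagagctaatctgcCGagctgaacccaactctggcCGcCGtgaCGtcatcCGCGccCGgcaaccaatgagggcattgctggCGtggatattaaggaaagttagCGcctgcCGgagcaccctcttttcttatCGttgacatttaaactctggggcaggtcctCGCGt
Nes: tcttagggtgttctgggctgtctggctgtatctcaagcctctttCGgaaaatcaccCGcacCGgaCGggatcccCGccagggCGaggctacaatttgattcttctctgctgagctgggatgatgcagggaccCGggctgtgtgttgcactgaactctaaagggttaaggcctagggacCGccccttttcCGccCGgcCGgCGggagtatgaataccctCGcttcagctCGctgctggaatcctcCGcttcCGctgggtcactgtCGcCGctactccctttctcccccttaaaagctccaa
Fabp7: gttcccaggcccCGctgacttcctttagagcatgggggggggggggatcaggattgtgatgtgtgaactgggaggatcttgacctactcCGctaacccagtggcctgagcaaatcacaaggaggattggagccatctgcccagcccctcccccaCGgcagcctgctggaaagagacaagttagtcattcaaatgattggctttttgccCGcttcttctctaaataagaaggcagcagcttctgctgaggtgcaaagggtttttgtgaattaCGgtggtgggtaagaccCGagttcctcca
Tnc: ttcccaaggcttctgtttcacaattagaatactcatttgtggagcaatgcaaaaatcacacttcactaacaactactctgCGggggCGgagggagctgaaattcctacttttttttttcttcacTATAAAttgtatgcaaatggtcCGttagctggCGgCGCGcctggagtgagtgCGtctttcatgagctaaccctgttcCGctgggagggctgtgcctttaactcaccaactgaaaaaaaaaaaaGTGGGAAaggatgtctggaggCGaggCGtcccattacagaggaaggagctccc
The Pax6 and Nes windows each held 18 CpG dinucleotides at a GC content of 58.7%, the Fabp7 window held 6 at 54.0% and the Tnc window 10 at 47.3%, where the median of all 32851 such windows was 7. These counts depend on the start chosen. A downstream Tnc window, which overlaps the printed one, held 16 CpG at 54.0%, and the downstream Pax6 window held 16 at 46.3%. A link between CpG content and the deviations was not tested. Both strands were searched for TATAAA (the TATA box), GTGGGAA (the core bound by RBPJ, the DNA-binding partner of Notch) and ACAAAG (a SOX core). No match overlapped another. In the printed Tnc window TATAAA began at -126 and GTGGGAA at -3 from the start, and the other windows printed held no match. From the downstream Tnc start the same matches began at -205 and -82. Over all windows 13.6% held TATAAA, 6.38% GTGGGAA and 18.7% ACAAAG. Among the windows of the remaining members, TATAAA occurred at -32 in Vim and at -161 in Slc1a3, and ACAAAG at -206 in Sox2 and at -154 in the downstream Pax6 window. A match is a run of letters and was not tested as a binding site.

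Other genes of radial glia gave a like count. Of 39 other genes of these cells, 38 were tested (all but Fam107a, with 1 to 11 counts), and edgeR called 0 after adjustment and 0 at an unadjusted p under 0.05. DESeq2 and limma-voom called 0 after adjustment as well. Their median log2 fold change was -0.022, with 16 above 0 and 22 below. Among those of at least 10 CPM the highest was Fgfr3, a growth factor receptor, at 100.8 ± 21.5 CPM in vehicle and 118 ± 22.3 CPM in BPA (log2 fold change 0.23, SE 0.155), and the lowest was Hes5, a Notch effector, at 16.1 ± 1.505 CPM and 12.7 ± 2.46 CPM (log2 fold change -0.34, SE 0.1797, mean ± SD, n = 3 each). For 1 gene, Mfge8, the groups did not overlap, at 132, 122 and 120 CPM in vehicle and 109, 113 and 111 CPM in BPA, where the log2 fold change was -0.17 (SE 0.0969; edgeR unadjusted p = 0.106). Mfge8, which encodes a secreted glycoprotein, was named after its values were seen. Its count of 1 of 38 stands against 3.56% of all genes tested that lay without overlap lower in BPA.

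Genes of neighboring cell types were set beside the members, and the highest and lowest log2 fold change of each list is given among its tested genes that averaged at least 10 CPM. Of 23 genes of dividing cells, 0 had an unadjusted p under 0.05, and the median log2 fold change was -0.038. The lowest was Rrm2, a nucleotide reductase subunit, at -0.15 and the highest Cenpf, a kinetochore protein, at 0.15. The 23 genes summed to 1779, 1826 and 1533 CPM in vehicle and 1869, 1793 and 1443 CPM in BPA. The 2 lowest sums were those of vehicle replicate 3 and BPA replicate 3, the libraries with the lowest Nes and the highest Fabp7 and Tnc. BPA replicate 3 was the lowest library for 15 of these 23 genes, for 4 of the 10 members (Pax6, Sox2, Sox3 and Nes) and for 14 of the 38 other radial glia genes, against 19.5% of all genes tested. The same library was lowest for 10 of the 15 subpallial genes treated below. Neuron genes showed the opposite, with 0 of 18 lowest and 6 of 18 highest in BPA replicate 3, against 17.4% of all genes tested that were highest there. For neuron genes 0 of 18 had an unadjusted p under 0.05, the median log2 fold change was -0.015, and the extremes of at least 10 CPM were Nefl, a neurofilament, at -0.22 and Neurod6, a neuronal transcription factor, at 0.10. Of 13 intermediate progenitor genes tested, 0 had an unadjusted p under 0.05, and the median log2 fold change was 0.046. Elavl4, at -0.097, and the neurogenic factor Neurod4, at 0.33 (SE 0.189), were the extremes of at least 10 CPM. For 2 of the 13, Neurod4 and Sstr2, a somatostatin receptor, the BPA libraries all lay above the vehicle libraries, against 3.19% of all genes tested. Sstr2, named after its values were seen, averaged 85.2 ± 2.77 CPM in vehicle and 98.2 ± 4.50 CPM in BPA (mean ± SD, n = 3 each), a log2 fold change of 0.21 (SE 0.101; edgeR unadjusted p = 0.0564, adjusted p = 0.9998).

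**Figure D4:**
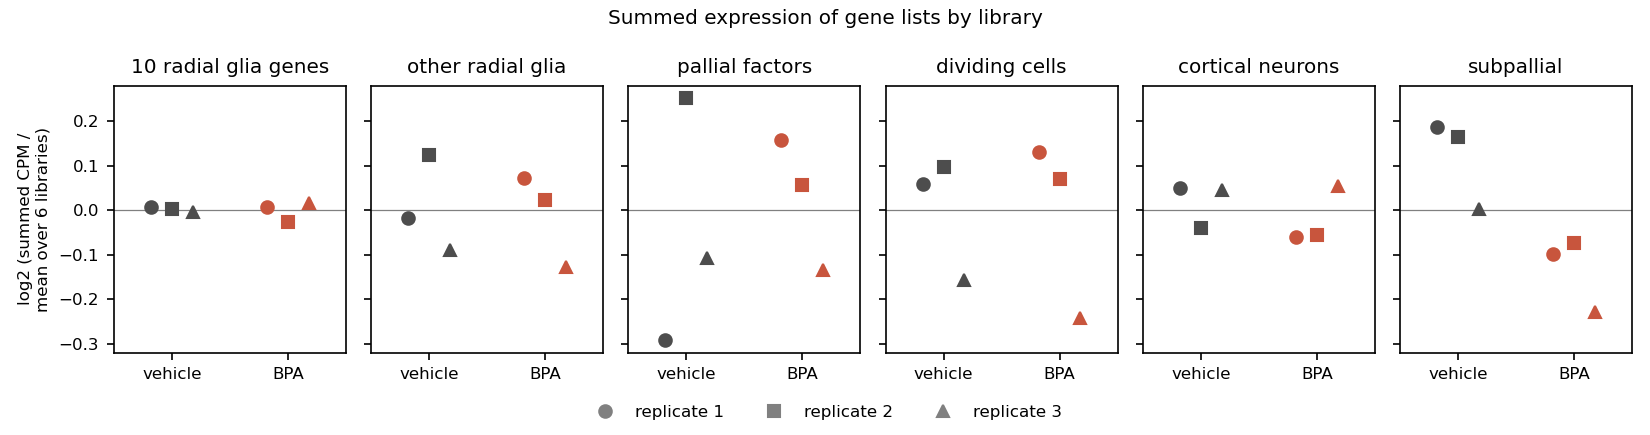
Summed CPM of 6 gene lists in each library, as log2 of the sum over its mean in the 6 libraries, for vehicle (gray) and BPA (red) and marker shapes for replicates. The panel titled cortical neurons holds the 18 neuron genes, of which those with the highest CPM are general to neurons. The 10 radial glia genes together, a sum in which Vim and Ptprz1 weigh most, vary by 1.03-fold. Dividing-cell genes are lowest in replicate 3 of each group, and the subpallial sums of the BPA libraries all lie below those of the vehicle libraries.

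The 10 pallial factors, which mark dorsal radial glia and their progeny, had log2 fold changes above 0 throughout, as had 6942 of the 13741 genes tested. Their median was 0.095, from 0.0017 (Emx1) to 0.17 (Neurog2) among those of at least 10 CPM, and 0 had an unadjusted p under 0.05. The list is not separate from those above: Emx2, Lhx2 and Gli3 are also among the other radial glia genes. Neurog1 and Neurog2 are also among the intermediate progenitor genes. The sums of the 10 pallial factors, 744, 1084 and 845 CPM in vehicle and 1015, 946 and 830 CPM in BPA, overlapped. In the subpallial list all 15 log2 fold changes were below 0, as were 6799 of the 13741 genes tested. Their median was -0.36. Of its 15 genes 8 had an unadjusted p under 0.05, all lower in BPA, against 1.18% of all genes tested. After adjustment edgeR called 0. Among the 8 were Lhx8 and, named after their values were seen, Dlx1, Nkx2-1 and Lhx6. For 11 of the 15 the groups did not overlap, lower in BPA, against 3.56% of all genes tested. The list was chosen with earlier results of these data known, so these counts are not independent of those results. The extremes of at least 10 CPM were Lhx8, a factor of ventral neurons, at -1.34 (SE 0.314) and Gad1, a GABA synthesis enzyme, at -0.085 (SE 0.111). The subpallial list summed to 1344, 1324 and 1184 CPM in vehicle and 1104, 1124 and 1009 CPM in BPA, without overlap. BPA replicate 3, the shallowest library, was the lowest for 10 of its 15 genes. Gsx2, which specifies ventral radial glia, averaged 7.02 ± 0.375 CPM in vehicle and 4.98 ± 1.96 CPM in BPA, a log2 fold change of -0.43 (SE 0.264, mean ± SD, n = 3 each). Gsx2 was named after its values were seen. Sox2 and Sox1 are also expressed by subpallial progenitors, and the part of these progenitors in their values was not tested.

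Markers of other cell types were set beside these values. Choroid plexus genes, of which 5 of 12 were tested and 0 had an unadjusted p under 0.05, summed to 86.2, 331 and 144 CPM in vehicle and 98.3, 489 and 91.0 CPM in BPA. The highest sums belonged to vehicle replicate 2 and BPA replicate 2, and among genes of at least 10 CPM the log2 fold changes ran from -0.12 for Igf2 to 0.71 (SE 1.08) for Ttr, the thyroxine carrier of the choroid plexus. Vessel and meningeal genes summed to between 256 and 330 CPM with overlapping groups, 0 of 14 had an unadjusted p under 0.05, and their log2 fold changes at 10 CPM or more ran from -0.14 for Kdr to 0.37 for Col3a1. Vim is also expressed by vessels and meninges, and their part in its values was not tested. Microglia and blood genes summed to between 329 and 663 CPM with overlapping groups. An unadjusted p under 0.05 was found for 1 of 13, the hemoglobin gene Hba-a1 at -0.43, against 1.18% of all genes tested, lower in BPA. Cx3cr1 was the highest of the microglia and blood genes at 10 CPM or more, at 0.074. Of 12 genes of later glia 10 were tested, all with log2 fold changes below 0, as had 6799 of the 13741 genes tested. The median of the 10 was -0.114. An unadjusted p under 0.05 was found for 2, both lower in BPA, against 1.18% of all genes tested. These were Olig1, at -0.45 (SE 0.188), and Olig2, which is also in the subpallial list and was named after its values were seen. For Olig2 alone of the 10 the groups did not overlap, lower in BPA, against 3.56% of all genes tested. Slc1a2, the glutamate transporter related to Slc1a3, was the highest of the later glia genes at 10 CPM or more, at -0.0040 (SE 0.145). Among the other astrocyte genes of the list, Aldh1l1 averaged 43.3 ± 2.31 CPM in vehicle and 40.8 ± 3.39 CPM in BPA, and Gja1 averaged 42.1 ± 18.3 CPM and 38.4 ± 6.38 CPM (mean ± SD, n = 3 each). Gfap and Aqp4 were tested at low levels. Gfap averaged 2.17 ± 1.59 CPM in vehicle and 1.73 ± 0.922 CPM in BPA, and Aqp4 averaged 1.88 ± 0.412 CPM and 1.81 ± 0.0691 CPM. S100b and Agt, which did not pass the filter, had at most 3 and 4 counts in any library. Aldh1l1, Gja1, Gfap, Aqp4, S100b and Agt were named after their values were seen.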

How the data were processed

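RNA was sequenced from the cortex of 6 male mouse fetuses, 3 per group. Per the study's methods, strand-specific libraries were read as single-end 50-base reads, aligned with TopHat 2.0.14 to GRCm38 and counted on GENCODE models with featureCounts. The strand and multi-mapping settings of the counting are not stated. The authors deposited raw read counts per gene symbol. The study's results section gives a later fetal age than its labels and methods.

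Group membership follows the labels, with replicates numbered in accession order. Genes were filtered with filterByExpr (minimum count 10, minimum total 15), which kept 13741 genes and 99.7% of counts, scaled by TMM and tested with the quasi-likelihood test of edgeR 4.0.16 in R 4.3.3 without covariates, with Benjamini-Hochberg adjustment over all genes. The threshold of 0.1, TMM and edgeR follow the study. Standard errors and 95% intervals were derived from the quasi-likelihood F statistic. RPKM used exonic lengths from GENCODE M21. Log2 CPM used a prior count of 2. Ratios were compared by exact permutation (scipy 1.17.1). Alternatives used DESeq2 1.42.0, limma-voom (limma 3.58.1), other scalings and filters, thinning, summing with overlapping genes and omission of each library. The script was tested on simulated counts.

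The members and gene lists were chosen with earlier results of these data known. Genes named from other lists are those with the highest or lowest log2 fold change averaging at least 10 CPM, and exceptions are stated. Library totals of 3444601 to 7180835 counts limit low genes such as Hopx. The SDs given for Sox3 and Hopx from counting error alone leave out differences between fetuses. The intervals of the log2 fold changes came from the quasi-likelihood fit and also include variation between libraries.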

Additional observations from a re-analysis of the deposited data

How the results depend on the processing

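No alternative test, scaling, filter, thinning or omission of a library called any of the 10 members or any other radial glia gene after adjustment. Among all genes, the count of calls moved from 0 to 3 with DESeq2 and to 19 with no filter, which tested 23501 genes, and ran from 0 to 1 when 1 library was left out (1 without vehicle replicate 3 or BPA replicate 2). The cause was not tested. Sox2 was lower in BPA in every fit, from -0.21 to -0.20 on the log2 scale over the alternatives that kept all libraries and from -0.29 to -0.14 with 1 library left out. Fabp7 turned from -0.0025 to 0.0059 with limma-voom, 0.00099 with library size alone and 0.037 after thinning. With 1 library left out, the log2 fold change ran from -0.18 to 0.21 for Pax6, -0.23 to 0.16 for Sox3, -0.093 to 0.14 for Nes, -0.084 to 0.023 for Vim, -0.11 to 0.096 for Fabp7, -0.058 to 0.21 for Slc1a3, -0.19 to 0.067 for Hopx, -0.056 to 0.19 for Tnc and -0.089 to 0.066 for Ptprz1. Without 1 library the difference in log2 ratio ran from -0.094 to 0.31 for Sox3 to Sox2, -0.17 to 0.087 for Fabp7 to Slc1a3, -0.091 to 0.15 for Nes to Vim, 0.0042 to 0.24 for Tnc to Ptprz1 and -0.38 to 0.25 for Hopx to Pax6, which was also -0.22 after thinning. No paired analysis was possible because the labels give no replicate numbers shared between the groups. The ratio with Sox2 added, 1.91-fold, was chosen after seeing the data, as was that ratio without Sox2 after thinning, which keeps proportions and so bears little on depth. At a minimum of 10 CPM Hopx was not tested. The unadjusted count of members under 0.05 was 1, Sox2, without BPA replicate 1 and 0 otherwise. Depth limits Hopx above all.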
